A study of Mus musculus with 10 samples.

Results

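The 32 genes described here form a list of germline genes taken to be silenced by DNA methylation in somatic tissue. Whether this holds for each gene was not checked. The genes were chosen by name and by no rule on measured values, though earlier results of these data were known. All 32 were found among the 38086 gene IDs that both deposited count tables hold. They fall into 4 roles: 12 genes of the piRNA pathway and germ granules, 9 of the meiotic chromosome axis, synapsis and recombination, 6 regulators of germ cells, and 5 other testis genes, mostly testis-specific relatives of broadly expressed genes. RNA was sequenced from bone marrow progenitors of C57BL/6 mice at 12 months of age. KO mice were homozygous for the floxed Dnmt3a allele (f/f) and carried Mx1-Cre, which interferon induces in blood-forming and other interferon-responsive cells. CTRL mice were Dnmt3a f/f without Cre. Both genotypes received 5 injections of poly(I:C), so the floxed alleles and the injections are shared, and loss of Dnmt3a cannot be told apart from the presence of Cre. The cells came from a pair of sorted populations. LSK cells (lineage-negative, Sca1+, cKit+) contain the blood stem cells, and GMP (granulocyte-macrophage progenitors, sorted as Sca1- cKit+ CD34+ FcgR+ cells free of lineage markers) are committed to myeloid fates. Each population had 2 CTRL and 3 KO libraries, and values are given in a fixed order: CTRL-346 then CTRL-350 and KO-178 then KO-179 then KO-352 for GMP, CTRL-1326 then CTRL-1330 and KO-1327 then KO-1333 then KO-1334 for LSK.

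In mammals the promoters of many germline genes are rich in CG dinucleotides (CpG) and gain methylation in the early embryo, when the de novo enzymes DNMT3A and DNMT3B act. DNMT1, guided by UHRF1, copies this methylation at each cell division, and a variant Polycomb complex with E2F6, MGA, MAX, L3MBTL2 and PCGF6 represses an overlapping set of these genes. Blood cells therefore normally make little or no RNA from them. DNMT3A is the de novo enzyme most often mutated in clonal blood disorders. The question put to the counts was whether any of the 32 genes was switched on in progenitors without Dnmt3a. DNA methylation itself was not analysed here.

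The 250 bases upstream of the start site are shown for 4 genes, chosen to set a pair with reads in every library (Hormad2 and Dmc1, whose levels are described below) against a pair with almost none (Mael, which had 1 read in all, and Sycp1, which had 0). Sequences are from RefSeq on GRCm38.p6, 5′ to 3′ on the minus strand, and capitals mark every CG. The windows are chr11:4441083-4441332 for Hormad2, chr15:79605110-79605359 for Dmc1, chr1:166238745-166238994 for Mael and chr3:102936101-102936350 for Sycp1.
Hormad2: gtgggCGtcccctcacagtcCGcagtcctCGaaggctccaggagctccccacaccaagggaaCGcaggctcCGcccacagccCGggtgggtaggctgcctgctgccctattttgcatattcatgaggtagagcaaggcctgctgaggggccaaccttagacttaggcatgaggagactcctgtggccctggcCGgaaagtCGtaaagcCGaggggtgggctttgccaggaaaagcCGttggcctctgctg
Dmc1: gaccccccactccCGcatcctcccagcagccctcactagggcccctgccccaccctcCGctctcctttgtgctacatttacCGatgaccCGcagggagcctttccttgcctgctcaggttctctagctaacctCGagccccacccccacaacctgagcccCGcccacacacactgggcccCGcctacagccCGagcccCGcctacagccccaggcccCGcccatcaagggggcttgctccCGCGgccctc
Mael: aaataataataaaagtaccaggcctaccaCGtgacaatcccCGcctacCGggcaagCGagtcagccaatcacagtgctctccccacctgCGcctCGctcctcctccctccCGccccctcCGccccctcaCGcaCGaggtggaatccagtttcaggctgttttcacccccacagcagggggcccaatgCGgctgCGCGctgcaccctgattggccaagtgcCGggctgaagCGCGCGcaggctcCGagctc
Sycp1: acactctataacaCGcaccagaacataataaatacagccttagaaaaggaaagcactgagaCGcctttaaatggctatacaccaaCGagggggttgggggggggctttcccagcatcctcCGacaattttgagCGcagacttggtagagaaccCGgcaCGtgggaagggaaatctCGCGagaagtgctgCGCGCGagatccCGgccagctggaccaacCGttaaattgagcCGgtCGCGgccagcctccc
Hormad2 had 10 CG and Dmc1 had 12 in this window, and the silent pair had 18 (Mael) and 17 (Sycp1). These pairs do not stand for the list: Stra8, with 1 read in all, had 5 CG, and Ddx4, Tex14 and Brdt, with a group mean over 1 CPM, had 31, 17 and 16.

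Promoters of 28 of the 32 genes were in the RefSeq table, and Dmrt1, Spo11, Piwil2 and Tex15 were not. The 28 had a median of 14.5 CG in the 250 bases, against 6 over all 27025 genes of the table. The CpG ratio, the number of CG observed over that expected from the C and G content, had a median of 0.66 in the germline genes and 0.38 in all genes. It reached 0.6 in 17 of 28 (60.7%), against 34.5% of all genes. The palindromic E-box CACGTG, the recognition sequence of MGA and MAX, was found in 13 of 28 (46.4%), against 6.04% of all genes and 9.59% of all genes with a ratio of 0.6 or more. The motif TCCCGC of E2F6, searched on both strands, was found in 9 of 28 (32.1%), against 16.9% of all genes and 37.4% of all genes with a ratio of 0.6 or more. In the 17 germline genes with a ratio of 0.6 or more, the E-box was found in 10 (58.8%) and the E2F6 motif in 6 (35.3%). Neither motif contains the other, and a match describes only the sequence. The median CpG ratio was 0.71 in the 12 genes whose highest group mean was under 0.1 CPM, 0.64 in the 10 between 0.1 and 1 CPM, and 0.58 in the 6 at 1 CPM or more. The ratio reached 0.6 in 7, 7 and 3 of these genes, so the share did not fall steadily with level. The top class lacks Spo11, Tex15 and Piwil2, which also had a group mean over 1 CPM. CPM is the usual count scaled to library size, here the total on genes times edgeR's TMM factor. Ddx4, the germ granule helicase VASA, had the highest group mean of the 32 and a ratio of 1.0.

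**Figure D1:**
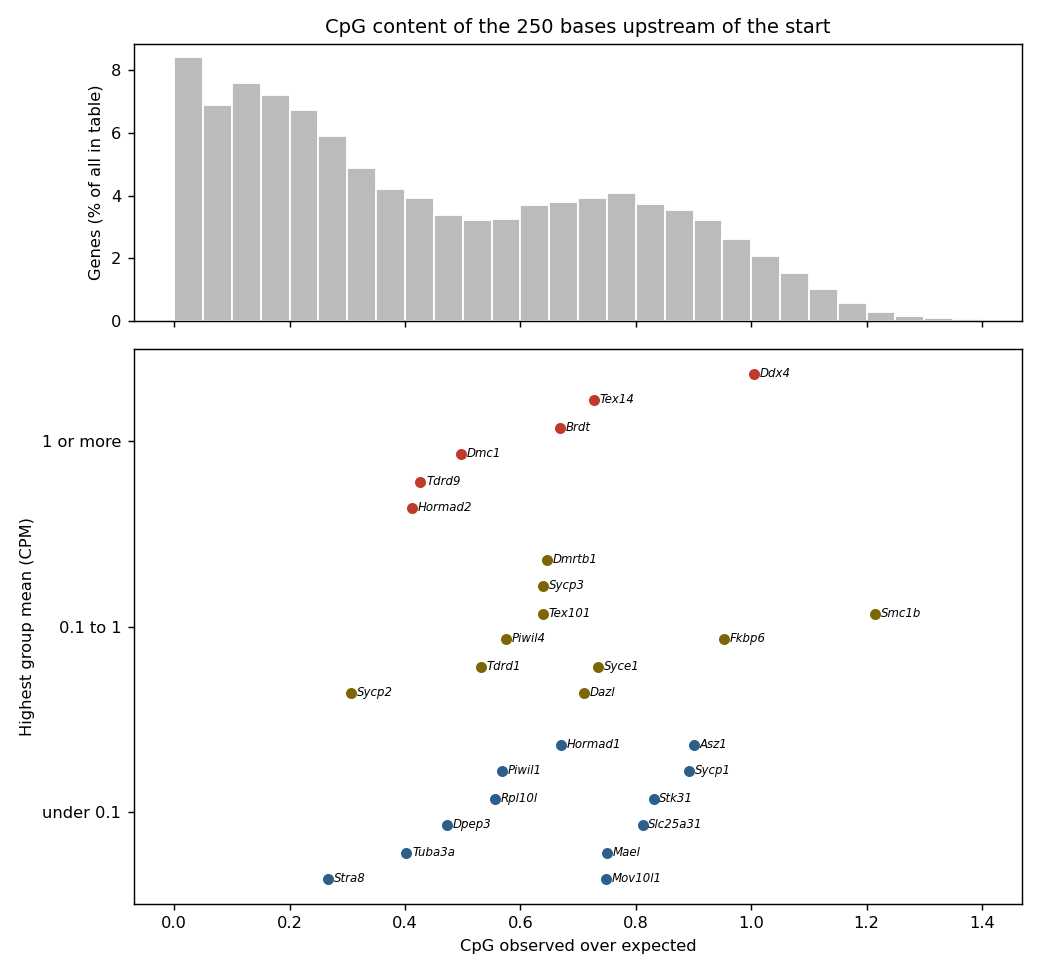
The upper panel is a histogram of the CpG observed over expected ratio in the 250 bases upstream of all genes of the RefSeq table, and the lower panel places the 28 germline genes found there, each a labelled point, by the same ratio and by the class of their highest group mean in CPM. The median ratio was 0.71, 0.64 and 0.58 from the lowest to the highest class, and the classes overlapped.

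Dnmt3a RNA was lower in KO in both populations, past the test in LSK alone. It counted 126.9 and 99.0 CPM in the GMP CTRL libraries, and 44.7, 57.4 and 17.7 CPM in KO. In LSK it counted 168.9 and 167.7 CPM in CTRL and 64.0, 57.8 and 65.5 CPM in KO. KO lay below CTRL in every library; the log2 fold change was -1.50 ± 0.42 (SE) in GMP, with an adjusted p of 0.30, and -1.43 ± 0.08 in LSK, with an adjusted p of 1.06e-04 (edgeR quasi-likelihood test, Benjamini-Hochberg). Without KO-352 the GMP adjusted p was 0.0493, and in the joint fit of all 10 libraries the LSK value of -1.44 had an adjusted p of 1.0. Over 15 settings of the GMP comparison, the log2 fold change of Dnmt3a stayed between -2.66 and -0.96. Part of the Dnmt3a RNA remained, and reads over the deleted exons were not separated from the rest. GMP libraries held 93850256 to 122658636 reads on genes and LSK libraries 29533371 to 30437981, so 0.1 CPM is about 3 reads in an LSK library and about 10 in a GMP library. The 6 GMP markers summed to 13927 to 22975 CPM in GMP and to 2057 to 2697 CPM in LSK, and the 7 LSK markers to 45.9 to 201 CPM in GMP and to 1231 to 1471 CPM in LSK, in the direction of the labels. GMP library CTRL-346 stood apart in detection: 20566 genes had a read there, against 21239 to 22864 in the other 4, and reads outside annotated genes made 8.5% of its reads, against 14.2% in CTRL-350 and 10.3% (KO-352) to 16.1% (KO-179) in KO. The labels do not say that each library is a separate animal, so p-values measure the spread between libraries.

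Means under 0.1 CPM, no read included, were found for 21 of the 32 genes in GMP CTRL, 16 in GMP KO, 15 in LSK CTRL and 16 in LSK KO. Piwil1, a PIWI protein of the postnatal testis, and Sycp1, the transverse filament of the synaptonemal complex, had 0 reads in all 10 libraries. In total 8 genes had at most 3 reads over the 10 libraries; the others were Mael, Asz1 and Stk31 of the germ granule, Rpl10l and Dpep3, testis relatives of a ribosomal protein and a dipeptidase, and Stra8, which starts meiosis. Each of these 6 had 1 read. For Mael and Asz1 it fell in KO-178, for Dpep3 in KO-179, for Stk31 and Rpl10l in KO-352, and for Stra8 in CTRL-350. A count of 0 over the 3 GMP KO libraries allows up to 0.00907 CPM, and over the 3 LSK KO libraries up to 0.0331 CPM, by a limit of 3 reads for counting error alone. By group mean, 10 of 32 genes had no read in GMP CTRL, 11 were under 0.1 CPM, 7 between 0.1 and 1 CPM and 4 at 1 CPM or more. In GMP KO these numbers were 4, 12, 12 and 4. In LSK they were 10, 5, 10 and 7 in CTRL and 9, 7, 8 and 8 in KO. The KO groups pool 3 libraries and the CTRL groups 2, so a read is more easily found in KO. In GMP, Mael, Asz1, Stk31, Rpl10l, Dpep3 and Slc25a31 had no read in CTRL and 1 in KO. Dmrt1 had 0 and 34 reads, and Stra8 had 1 and 0. The same 4 genes, Hormad2, Tex15, Tex14 and Dmc1, held the top class in both GMP groups. Silence therefore did not describe every gene of the list: in LSK CTRL, Ddx4 had 11.6 CPM and Spo11 had 9.35 CPM.

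**Figure D2:**
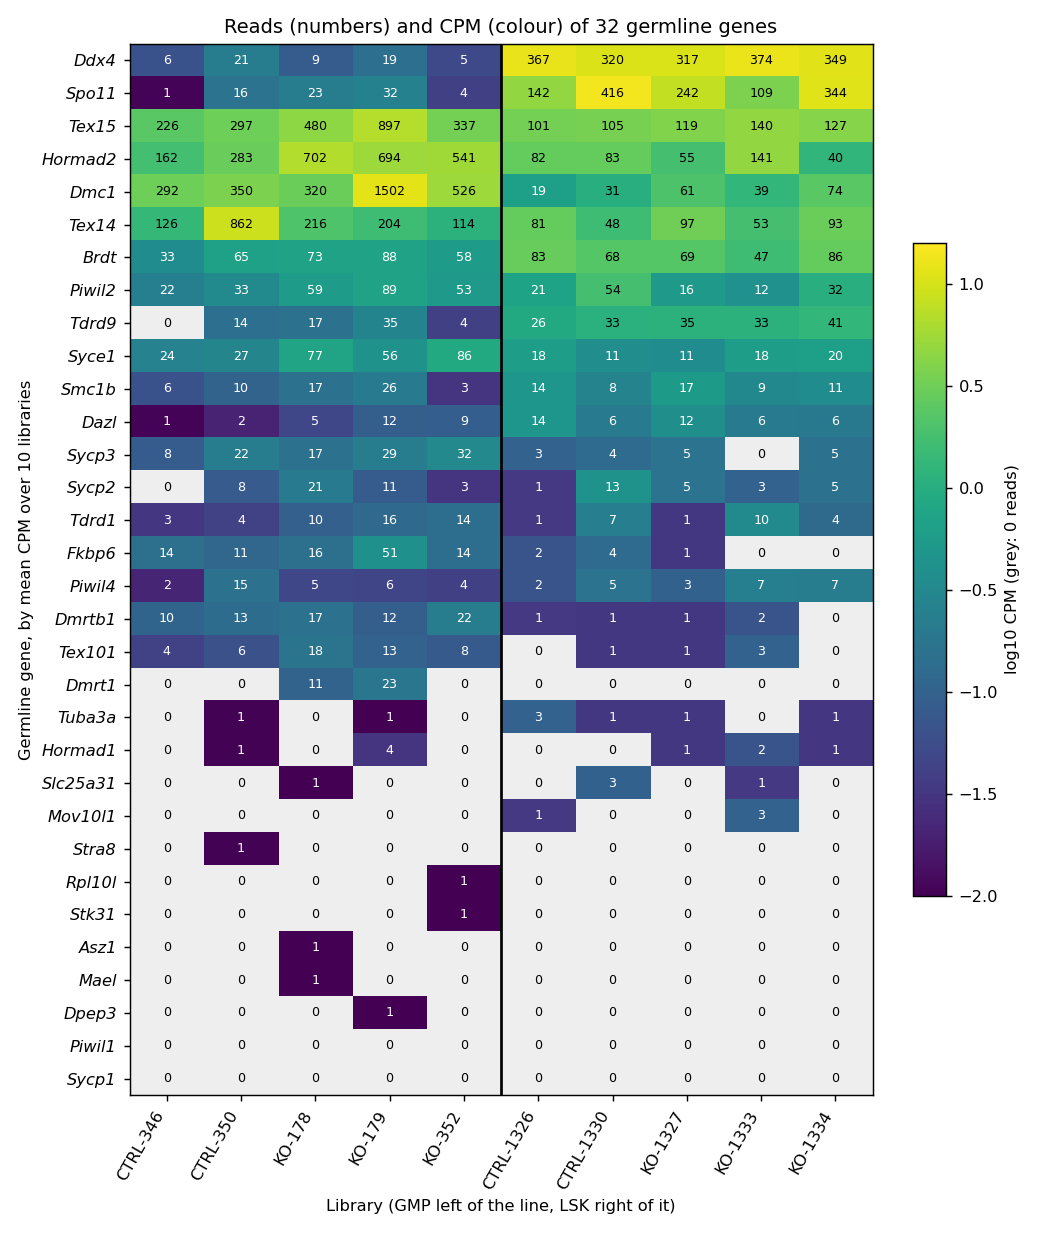
Each row is 1 of the 32 germline genes and each column 1 of the 10 libraries, GMP left of the line and LSK right of it; the number is the read count and the colour is log10 CPM, with grey for 0 reads. The lowest rows, Piwil1 and Sycp1, are at 0 throughout, and Ddx4 and Spo11 are high in all 5 LSK libraries and low in GMP.

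No germline gene was switched on by the rule used, which asks for under 0.1 CPM in every CTRL library and at least 0.1 CPM in every KO library. The count was 0 of 32 in GMP, where 0.524% of all genes with a read met the rule, and 0 of 32 in LSK, where 0.348% did. Among genes with a read that were under 0.1 CPM in every CTRL library, the shares were 1.6% in GMP and 1.72% in LSK. Of the 32, 17 and 14 were under 0.1 CPM in every CTRL library. These include 3 in GMP and 9 in LSK with no read in any library of that population, which the shares leave out. A looser rule, 1 KO library at 1 CPM or more with every CTRL library under 0.1 CPM, was also met by 0 germline genes in each population, against 0.125% of all genes in GMP and 0.0267% in LSK. In every one of the 5 libraries, 13 of the 32 stayed under 0.1 CPM in GMP and 12 did in LSK. A lower limit of 0.05 CPM gave 1 gene in GMP, Tdrd1, beside 0.583% of all genes with a read. Leaving out KO-178 also gave Tdrd1 (0.755% of all genes), leaving out KO-352 gave 2, Dmrt1 and Tex101 (1.52%), and leaving out CTRL-350 gave Sycp3 (2.14%). In LSK, leaving out CTRL-1330 gave Sycp2 (1.12%), with 5, 3 and 5 reads in KO.

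In GMP no germline gene passed the test. Of 17 that passed the filter on low counts, 0 were called at an adjusted p under 0.05, where 0.0347% of all genes tested were called (6 of 17290, 0.0231% higher and 0.0116% lower in KO). At an unadjusted p under 0.05 there were 7, of which 6 had higher counts in KO, against 13.8% of all genes tested in either direction and 7.19% in the higher direction. The log2 fold change was positive for 15 of 17, against 51.2% of all genes tested, and its median was 0.93 against 0.01. Low genes in general had positive medians: it was 0.73 in the 10 germline genes of mean 0.1 to 1 CPM, beside 0.21 over all genes of that level, and 0.92 in the 4 of 1 to 10 CPM, beside 0.11. These figures describe the tested genes and not the list, because the filter lets in a gene that is high in KO alone. Both CTRL libraries reached the filter's level for 9 of the 17, of which 8 had a positive fold change (median 0.86), and the other 8 genes, among them Dmrt1, Tdrd1, Tex101, Tdrd9, Spo11 and Smc1b, reached it in at most 1 CTRL library. With Dmrt1 at its lower bound, given below, the median of the 17 is the same. Every KO library lay above every CTRL library for 7 of 32 genes and below for 0, against 13.2% and 12.2% of all genes with a read. Of the 32, 3 had no read in GMP, and the shares leave such genes out. By mean level the 7 were 3 of 15 with any read under 0.1 CPM, 2 of 10 from 0.1 to 1 CPM and 2 of 4 from 1 to 10 CPM, beside 7%, 16.2% and 22.3% of all genes at those levels and 14.3% above them. The 7 were Hormad2, Tex15, Syce1, Piwil2, Tdrd1, Tex101 and Dazl, and by role they made 3 of 12 piRNA genes, 2 of 9 meiotic genes, 1 of 6 regulators and 1 of 5 other testis genes. With fewer libraries more genes of any kind separate: the number was 13 without CTRL-350, beside 27.9% of all genes with a read, and 14 without KO-352, beside 26.2%. DESeq2 called 1 germline gene, Hormad2, higher in KO, where it called 4.32% of all genes it tested and 2.65% as higher.

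Hormad2 (chr11:4345814-4441105, GRCm38) encodes a protein of the unsynapsed meiotic chromosome axis. In GMP it had 162 and 283 reads in CTRL and 702, 694 and 541 in KO. This is 1.75 and 2.96 CPM in CTRL and 6.71, 5.46 and 5.47 CPM in KO. The lowest KO library was above the higher CTRL library by more than the distance between the CTRL libraries. Means were 2.35 ± 0.85 (SD, n = 2) and 5.88 ± 0.72 (SD, n = 3) CPM, and the log2 fold change was 1.32 ± 0.30 (SE). The edgeR unadjusted p was 0.0031 and the adjusted p 0.26, and DESeq2 gave an adjusted p of 6.31e-04, so the call differs between the tools. Hormad1, its paralog on the same axis, had 0 to 4 reads in each GMP library. In LSK, Hormad2 showed no such order: CTRL had 2.79 and 2.77 CPM and KO had 1.81, 4.82 and 1.29 CPM, on both sides of CTRL.

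Syce1 (chr7:140777229-140787852), a central element protein of the synaptonemal complex, had 24 and 27 reads in GMP CTRL and 77, 56 and 86 in KO. The groups did not overlap, at 0.259 and 0.282 CPM in CTRL and 0.736, 0.440 and 0.870 CPM in KO, and the log2 fold change was 1.33 ± 0.46 with an edgeR adjusted p of 0.33. In LSK its CTRL mean of 0.49 CPM and KO mean of 0.54 CPM lay closer together than the 2 CTRL libraries, whose SD was 0.17. Dmc1 (chr15:79561497-79605109), the recombinase that pairs homologous strands in meiosis, had 3.15 and 3.66 CPM in GMP CTRL and 3.06, 11.8 and 5.32 CPM in KO. KO-179, with 1502 reads, stood above all others and KO-178 fell just below CTRL, so the groups overlapped; the log2 fold change was 0.98 ± 0.54 with an edgeR adjusted p of 0.44, and 0.30 without KO-179. In LSK the same gene had 0.648 and 1.03 CPM in CTRL and 2.01, 1.33 and 2.39 CPM in KO. There the groups did not overlap, and the log2 fold change was 1.182 ± 0.39 with an unadjusted p of 0.0143 and an adjusted p of 0.9998 (edgeR).

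Tex15 (chr8:33516738-33585582), which acts with PIWI proteins in transposon silencing in the male germline, was the 1 gene with every KO library above every CTRL library in both populations. In GMP it had 226 and 297 reads in CTRL and 480, 897 and 337 in KO, or 2.44 and 3.10 CPM against 4.59, 7.05 and 3.41 CPM. In LSK it had 3.44 and 3.50 CPM in CTRL and 3.92, 4.78 and 4.11 CPM in KO. The log2 fold change was 0.86 ± 0.35 in GMP and 0.30 ± 0.21 in LSK, and neither passed (edgeR adjusted p of 0.35 and 0.9998). Piwil2 (chr14:70372477-70429383), the PIWI protein MILI, had 22 and 33 reads in GMP CTRL and 59, 89 and 53 in KO. Its CPM values, 0.237 and 0.345 in CTRL and 0.564, 0.700 and 0.536 in KO, did not overlap, and the log2 fold change was 1.04 ± 0.42 (edgeR adjusted p of 0.35). In LSK it went the other way in mean, with 0.716 and 1.80 CPM in CTRL and 0.527, 0.410 and 1.04 CPM in KO, and the groups overlapped (log2 fold change -0.93 ± 0.53, edgeR adjusted p of 0.9998).

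**Figure D3:**
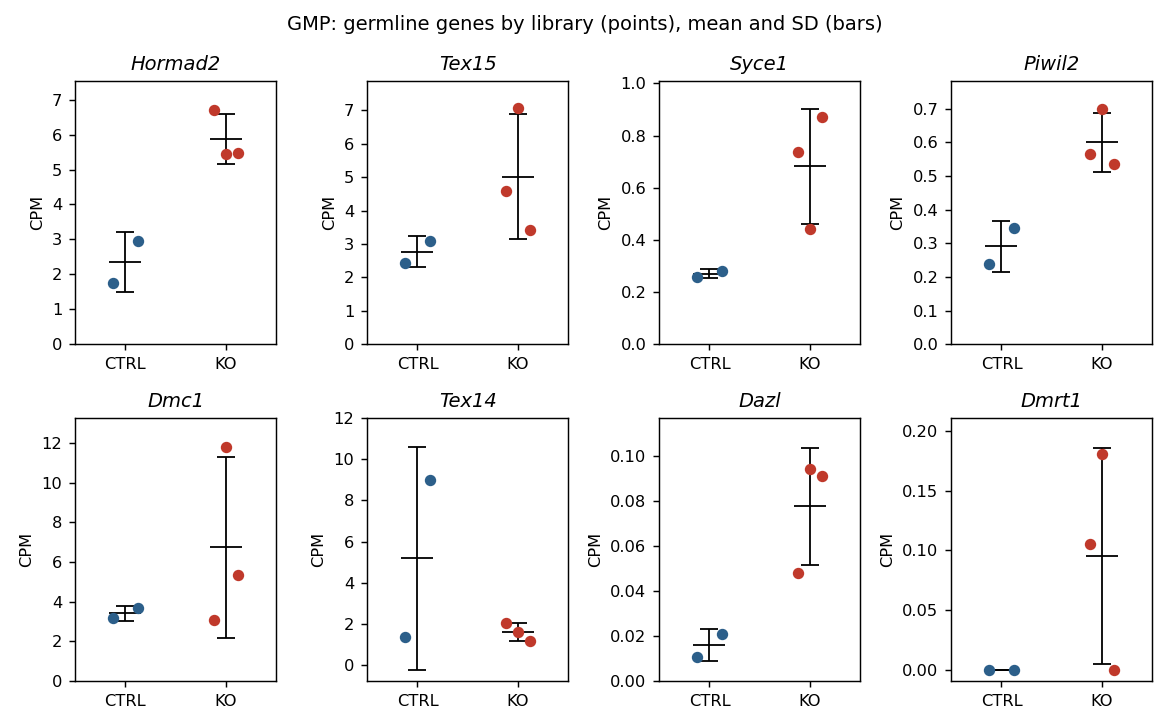
CPM of 8 germline genes in the 2 CTRL and 3 KO GMP libraries; each point is a library and bars are the mean and SD. Hormad2, Tex15, Syce1, Piwil2 and Dazl have every KO point above every CTRL point, Dmc1 overlaps, Tex14 is set apart by CTRL-350, and Dmrt1 has reads in KO-178 and KO-179 alone.

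Several genes were near the limit of counting. Tdrd1, a Tudor scaffold that binds PIWI proteins, had 3 and 4 reads in GMP CTRL and 10, 16 and 14 in KO. Its levels were 0.032 and 0.042 CPM against 0.096, 0.126 and 0.142 CPM, and the log2 fold change was 1.67 ± 0.70 (edgeR adjusted p of 0.36). Tex101, a surface glycoprotein of germ cells, had 4 and 6 reads in CTRL and 18, 13 and 8 in KO (1.14 ± 0.72, edgeR adjusted p of 0.50). Dazl, an RNA-binding protein needed for germ cell development, and Dmrt1, a transcription factor of the testis, fall outside the rule for named genes and were picked after their values were seen, as were Sycp2, Sycp3, Smc1b, Dmrtb1, Hormad1 and Tuba3a wherever their reads are given. Dazl had 3 reads over the 2 GMP CTRL libraries and 26 over the 3 KO libraries (5, 12 and 9), a ratio of 4.94 in pooled CPM with a counting interval of 1.51 to 25.5 (95%), and was too low to be tested. In LSK it had 14 and 6 reads in CTRL and 12, 6 and 6 in KO, which overlap. In GMP, Dmrt1 had 0 reads in both CTRL libraries and 11, 23 and 0 reads in KO, and it had 0 in all LSK libraries. Pooled over the 3 KO libraries it was at least 6.46-fold higher than the limit that 0 reads over the CTRL group allows, but 1 of 3 KO libraries was as empty as CTRL, and the edgeR adjusted p was 0.36.

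Tex14, needed for the bridges between dividing germ cells, had the opposite order of means in GMP, 5.18 CPM in CTRL and 1.61 CPM in KO. This came from 1 library: CTRL-350 had 862 reads (9.0 CPM), against 126 (1.36 CPM) in CTRL-346 and 216, 204 and 114 (2.07, 1.60 and 1.15 CPM) in KO. The log2 fold change of -1.69 ± 0.69 (edgeR adjusted p of 0.35) became 0.23 without CTRL-350, and -2.30 with an adjusted p of 0.0032 without KO-352 and CTRL-346. The last fit, chosen after seeing the data, leaves CTRL-350 as the only CTRL library and takes the spread from 2 KO libraries, so it compares that library with KO. CTRL-350 was also the library with the highest sum of the 8 mast cell, basophil and eosinophil markers, 3613 CPM against 1093 CPM in CTRL-346 and 718 to 990 CPM in KO, with all 8 above 0. Their part in the result was not tested. These 8 markers had negative fold changes in KO in 8 of 8, 7 of them at an unadjusted p under 0.05 and 0 called. Sums of 3 other marker lists also separated the GMP groups, as the counts of the 7 ordered genes did. The 7 monocyte and macrophage markers summed to 2304 to 2501 CPM in CTRL and 2825 to 3349 CPM in KO. The fold change was positive for 4 of 7, and F13a1 made most of the difference, with means of 968 and 1597 CPM. The 7 T and NK cell markers summed to 365 to 450 CPM in CTRL and 249 to 315 CPM in KO. Nkg7 made most of that difference, with means of 407 and 282 CPM. Yet 4 of the 6 tested were positive, among them Cd4 (0.180 and 2.69 CPM) and Klrb1c (0.206 and 3.28 CPM). Cd3e had 0 reads in CTRL and 1 in KO. The part of these markers was not tested. The summed LSK markers were 105 to 201 CPM in GMP KO and 45.9 to 57.0 CPM in GMP CTRL, 6 of 7 with a positive fold change, 0 called and none at 0 in either group. Flt3 made most of the difference in sum, with means of 17.0 CPM in CTRL and 105 CPM in KO, and Ly6a, the Sca1 gene, had 0.861 and 1.62 CPM. The next ranking covers germline genes with a read in both CTRL groups. Mov10l1 and Slc25a31, with 1 and 3 reads in LSK CTRL and 0 in GMP CTRL, have no ratio. Of the 4 genes with the largest LSK to GMP ratio of CTRL means, Spo11 (9.35 and 0.089 CPM), Ddx4 (11.6 and 0.142 CPM) and Tdrd9 (0.993 and 0.0731 CPM) overlapped between the GMP groups. Dazl (0.339 and 0.0158 CPM) had every GMP KO library above CTRL. Counts of LSK and GMP came as separate tables, of 45513 and 38924 genes. Population and processing therefore cannot be told apart in these ratios. In bulk RNA, a change in the share of cells of a type and a change in RNA per cell cannot be told apart.

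The other GMP genes tested overlapped between genotypes. Brdt, the testis member of the BET bromodomain family, had 0.356 and 0.679 CPM in CTRL and 0.698, 0.692 and 0.586 CPM in KO (0.35 ± 0.42). Spo11, the enzyme that makes meiotic double-strand breaks, had 1 and 16 reads in CTRL and 23, 32 and 4 in KO (0.93 ± 1.13, 0.038 without CTRL-346 and 3.84 without CTRL-350). Ddx4 had 6 and 21 reads in CTRL and 9, 19 and 5 in KO (-0.56 ± 0.79). Tdrd9, a helicase of the piRNA pathway, had 0 and 14 reads in CTRL and 17, 35 and 4 in KO (1.12 ± 1.30), and Fkbp6, a co-chaperone in piRNA production, had 14 and 11 in CTRL and 16, 51 and 14 in KO (0.81 ± 0.68, 0.15 without KO-179). Tdrd9 had 0.13 without CTRL-346 and, with CTRL then at 0 reads, no usable fold without CTRL-350. Smc1b, the meiotic cohesin subunit, had 6 and 10 reads in CTRL and 17, 26 and 3 in KO (0.65 ± 0.88), and Dmrtb1, a regulator of spermatogonia, had 10 and 13 in CTRL and 17, 12 and 22 in KO (0.38 ± 0.63). In each case at least 1 KO library was at or below a CTRL library in CPM. The lowest counts of Tdrd9, Spo11 and Sycp2, an axis protein with 0 and 8 reads in CTRL and 21, 11 and 3 in KO, were all in CTRL-346 and KO-352, the libraries with the smallest shares of reads outside genes. Mature neutrophil markers were also lowest there in sum, at 658 and 395 CPM against 1332 to 2668 CPM in the other GMP libraries. Erythroid and megakaryocyte markers summed to 52.9 and 39.5 CPM there, against 107 to 133 CPM. The part of any of these traits was not tested. Sycp3, the partner of Sycp2, had 8 and 22 reads in CTRL and 17, 29 and 32 in KO, but 660 of its exon bases overlap Chpt1 on the other strand. The strand setting of the counting is not known here, so it is not known how reads over those bases were assigned. Piwil4, Dpep3 and Tuba3a also share 75 to 137 exon bases with antisense RNAs.

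**Figure D4:**
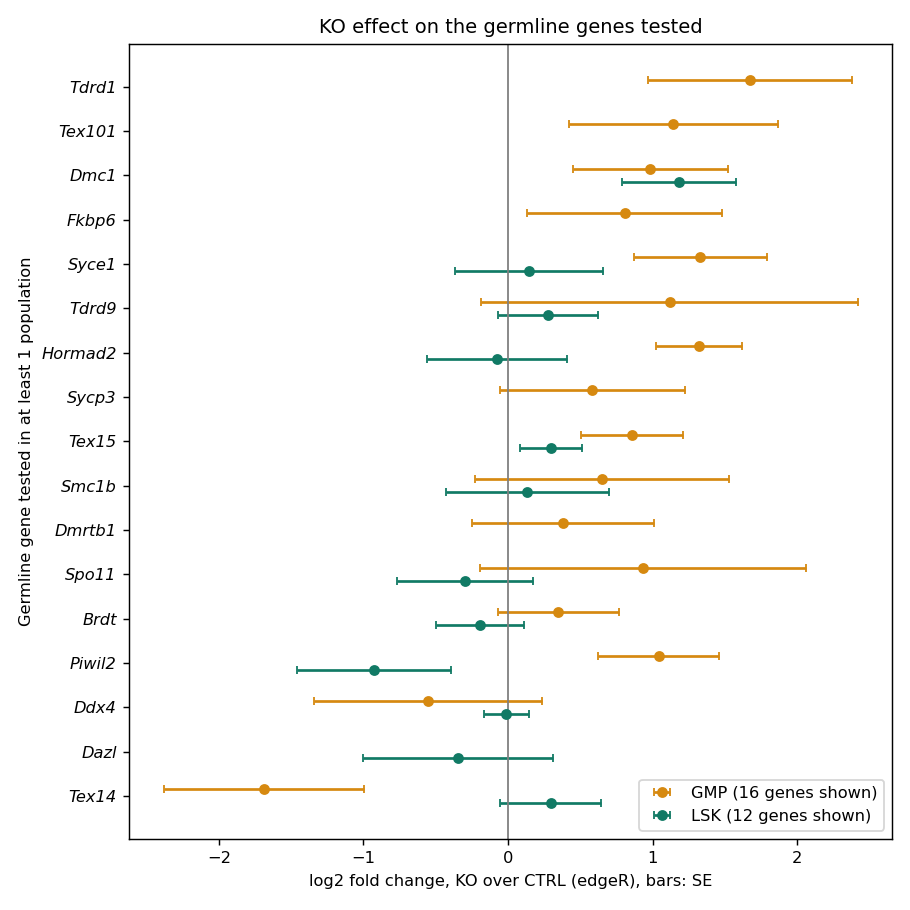
Log2 fold change of KO over CTRL (edgeR) with its SE for germline genes tested in GMP or LSK; Dmrt1 is left out because its CTRL libraries had 0 reads. Most GMP points lie right of 0, with Tex14 and Ddx4 left of it, and LSK points lie on both sides, with Dmc1 farthest right and Piwil2 farthest left.

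In LSK no shift of the list was seen. Of 12 germline genes tested, 0 were called, where 0.0232% of all genes tested were called (4 of 17238, 0.0116% higher and 0.0116% lower in KO). DESeq2 also called 0, where it called 0.0802% of its genes and 0.0382% as higher. Dmc1 alone had an unadjusted p under 0.05, against 2.83% of all genes tested. Positive and negative fold changes were equal in number, 6 and 6, beside 50.8% positive over all genes, and the median was 0.06 beside 0.0027. Every KO library was above every CTRL library for 4 of 32 genes (Dmc1, Tex15, Tdrd9 and Hormad1) and below for 2 (Tuba3a and Fkbp6), against 6.84% and 7.34% of all genes with a read. Of the 32, 9 had no read in LSK, and the shares leave such genes out. The 4 above were 1 of 7 genes with any read under 0.1 CPM, 0 of 8 from 0.1 to 1 CPM, 3 of 7 from 1 to 10 CPM and 0 of 1 higher, beside 3.33%, 10.9%, 8.43% and 5.99% of all genes at those levels. Hormad1 rested on 0 reads in CTRL and 1, 2 and 1 in KO, and Fkbp6 on 2 and 4 reads in CTRL and 1, 0 and 0 in KO. Tuba3a, a testis tubulin, had 3 and 1 reads in CTRL and 1, 0 and 1 in KO.

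The germline genes with the most RNA per length in LSK were Ddx4 and Spo11. Ddx4 led with 3.84 CPM per kilobase of exon in CTRL and 3.82 in KO, followed by Spo11 with 2.39 and 1.94. Hormad2 came next with 1.02 and 0.966, and Dmc1 had 0.345 and 0.785. Ddx4 had 367 and 320 reads in LSK CTRL and 317, 374 and 349 in KO. That is 12.5 and 10.7 CPM against 10.4, 12.8 and 11.3 CPM, and the log2 fold change was -0.01 ± 0.15, the tightest of the list. Spo11 had 142 and 416 reads in CTRL and 242, 109 and 344 in KO, so it varied about equally within both genotypes, and the log2 fold change was -0.30 ± 0.47. Tdrd9 had 0.886 and 1.10 CPM in CTRL and 1.15, 1.13 and 1.33 CPM in KO; the groups did not overlap, by a margin smaller than the distance between the CTRL libraries (0.27 ± 0.35). Brdt had 2.83 and 2.27 CPM in CTRL and 2.27, 1.61 and 2.78 CPM in KO (-0.20 ± 0.30). Tex14 had 2.76 and 1.60 CPM in CTRL and 3.19, 1.81 and 3.01 CPM in KO, overlapping, with no library like GMP CTRL-350 (0.29 ± 0.35). The edgeR adjusted p was 0.9998 for each of these genes in LSK.

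**Figure D5:**
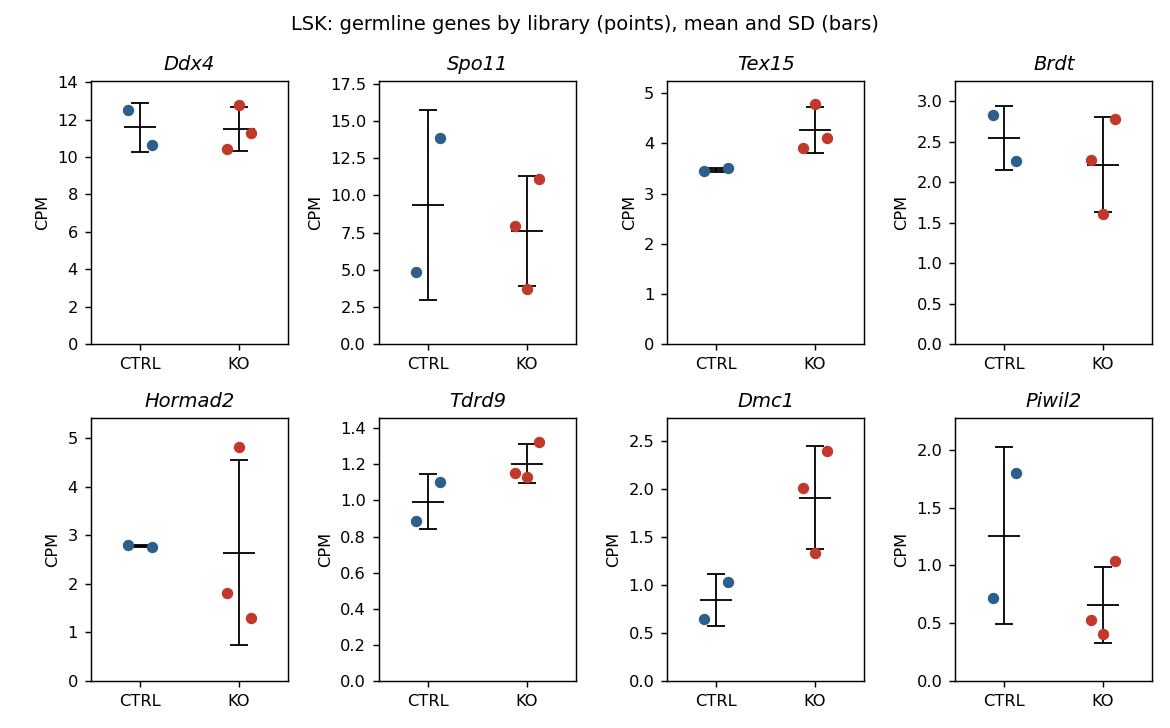
CPM of 8 germline genes in the 2 CTRL and 3 KO LSK libraries; each point is a library and bars are the mean and SD. Dmc1, Tex15 and Tdrd9 have every KO point above every CTRL point, and Ddx4, Spo11, Brdt, Hormad2 and Piwil2 overlap.

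The effect of genotype was compared between populations in 1 fit of the 10 libraries. Of 17 germline genes tested, 0 differed at an adjusted p under 0.05, where 0.0265% of all genes did (5 of 18836), and 2 had an unadjusted p under 0.05, against 10.1% of all genes. These 2 were Piwil2, with a difference of LSK minus GMP of -1.98 ± 0.73 in log2 units (edgeR adjusted p of 0.44), and Dazl, with -2.55 ± 1.06 (adjusted p of 0.47). Both had higher KO than CTRL means in GMP and lower KO means in LSK. For Hormad2 the difference was -1.41 ± 0.68 and for Syce1 -1.20 ± 0.67, with adjusted p of 0.51 and 0.55. For Dmc1, higher in KO by mean in both populations, it was 0.18 ± 0.71 (adjusted p of 0.96). A difference of the KO effect between LSK and GMP was therefore not shown for any gene of the list.

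A further 3 lists gave the setting. Of 20 other piRNA and germ granule genes, 15 were tested in GMP and 11 in LSK and 0 were called in either; 7 and 5 had positive fold changes, with medians of -0.03 in both. The smallest p in GMP belonged to Nanos3, a germ cell RNA-binding protein (log2 fold change 1.03 ± 0.51, edgeR adjusted p of 0.41), Tdrkh (-0.43 ± 0.24, 0.44) and Tdrd5 (3.39 ± 1.95, 0.46), both Tudor proteins, and 199 of the 211 KO reads of Tdrd5 came from KO-179. In LSK they belonged to Pld6, Mybl1 and Ddx25, at -0.35, 0.27 and -1.04. Of 29 other meiosis genes, 27 were matched, 19 were tested in each population and 0 were called; 12 were positive in GMP (median 0.22) and 15 in LSK (median 0.13). In GMP, Six6os1, a synaptonemal complex protein, had means of 0.802 CPM in CTRL and 4.96 CPM in KO, the groups did not overlap, and the log2 fold change was 2.63 ± 0.56 (edgeR adjusted p of 0.26). Mnd1, a cofactor of DMC1, had 13.5 and 23.8 CPM (0.82 ± 0.18, 0.26), and Hspa2, a heat shock protein abundant in the testis, had 37.0 and 15.6 CPM (-1.25 ± 0.25, 0.26). These 3 were named because they had the smallest unadjusted edgeR p of the list in the same data. DESeq2 called all 3, with adjusted p of 2.6e-05 for Six6os1, 6.15e-04 for Hspa2 and 0.00385 for Mnd1. It called 4.32% of all genes it tested, and its calls in the rest of the list are not given. Without KO-352 edgeR called Six6os1 (0.0493) and Hspa2 (0.0254), in a fit that called 172 of all genes. Rec8, Six6os1 and Stag3 led in LSK, at 0.79, 0.58 and 0.43, with none called. No gene of these lists was switched on by the rule above.

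The 21 repressors and methylation enzymes included no called gene in GMP and Dnmt3a alone in LSK, lower in KO. In GMP 8 of 21 were positive, with a median of -0.11, and next to Dnmt3a the smallest p belonged to Tet1, an enzyme that oxidises methylated cytosine (-0.41 ± 0.13, edgeR adjusted p of 0.31), and L3mbtl2 of the Polycomb complex (-0.35 ± 0.16, 0.38). In LSK 13 of 20 were positive, with a median of 0.04, and after Dnmt3a came Uhrf1 (0.18) and Dnmt3b (0.13). Of 14 germ cell markers that are not in the list, 4 were tested in GMP and 3 in LSK, with 0 called. Kit and Zbtb16, which blood progenitors also express, had 203 and 32.9 CPM in GMP CTRL. Ldhc had 501 reads over the 2 GMP CTRL libraries and 507 over the 3 KO libraries. Its means were 2.64 CPM in CTRL and 1.48 CPM in KO (log2 fold change -0.83 ± 0.48). Gfra1 had 109 reads over LSK CTRL and 304 over LSK KO, with means of 1.84 and 3.34 CPM (0.86 ± 0.44). Zp3, Tnp1, Spata19, Pgk2 and Dppa4 had 0 reads in all 10 libraries, and the protamine gene Prm1 had 2 and 3 reads over GMP CTRL and KO and 3 and 7 over LSK CTRL and KO.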

How the data were processed

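Total RNA from 10 sorted libraries was sequenced after ribosomal RNA removal with a stranded kit, per the labels' protocols. The authors deposited raw read counts by Ensembl gene. The submitters' processing notes list STAR, DESeq2 1.4.5, DESeq 1.18.0, HTSeq 0.5.3p3 and mm10 (GRCm38), without roles. The annotation release and strand setting were not given in the sources used here. Values in the deposited normalized tables, a signal, equal counts divided by 1 size factor per library and served as an alternative scaling. Lines that name no gene were left out of totals. KO-352 was taken as GMP from its title, although its description names LSK.

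Counts were tested per population with edgeR 4.0.16 (R 4.3.3): filterByExpr with a minimum count of 10, TMM, quasi-likelihood test, two-sided, Benjamini-Hochberg adjustment over all genes tested, threshold 0.05; a fit of all 10 libraries gave the difference. SE is the absolute log2 fold change over the root of F. Alternatives were RLE and the authors' size factors, no filter, DESeq2 1.42.0, limma-voom (limma 3.58.1), the joint fit, reads outside genes as a covariate, other limits of detection and leaving out each library; leaving out 2 libraries together was chosen after seeing the data. By rule, values per library are given for genes called, separated between genotypes at 0.1 CPM or more, switched on, or at 1 CPM in a group, and for the 3 smallest p of each other list; genes outside it are named as such. Genes and lists were chosen with earlier results of these data known. The fits were tested on simulated counts. Coordinates are from GENCODE on GRCm38, and floors and intervals cover counting error only.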

Additional observations from a re-analysis of the deposited data

How the results depend on the processing

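With 2 CTRL and 3 KO libraries, the number of calls in GMP depended on the method. As shares of all genes tested, calls made 0.0347% with edgeR and 4.32% with DESeq2, and calls among the 32 are to be read beside these. All genes past the threshold numbered 6 in GMP, 718 with DESeq2, 182 in the joint fit, 0 with limma-voom, 50 with no filter and 205 with reads outside genes as a covariate. Leaving out 1 library gave 1 to 172, leaving out KO-178 and KO-179 gave 3, and leaving out KO-352 and CTRL-346 gave 1050. In LSK 4 became 21 with DESeq2, 0 in the joint fit, 27 with no filter and 3 to 11 with 1 library left out. For the difference, 5 became 218 with DESeq2, 38 with no filter and 1 to 513 with 1 library left out. The cause was not tested. Among the 32, 0 were called in GMP, 1 with DESeq2 (Hormad2) and 1 without KO-352 and CTRL-346 (Tex14, with CTRL-350 as the lone CTRL library and the spread from 2 KO libraries); in LSK and for the difference 0 were called under each alternative that was run. Genes switched on in GMP numbered 0, 1 at 0.05 CPM, 0 to 2 with 1 library left out, 1 without KO-178 and KO-179 and 2 without KO-352 and CTRL-346; in LSK 0 to 1 with 1 library left out. All genes meeting the rule made 0.524% in GMP, 0.74% to 2.14%, 1.49% and 2.11% with these libraries left out, and 0.348% and 0.668% to 1.34% in LSK. Genes with KO above CTRL in GMP numbered 7, 8 to 14 with 1 library left out, 12 without KO-178 and KO-179 and 14 without KO-352 and CTRL-346; those below numbered 0, 0 to 5, 3 and 6. The share of all genes above was 13.2%, 16.1% to 27.9%, 25.8% and 35.1% in these settings, and of those below 12.2%, 14.7% to 28.6%, 26.3% and 36.3%. In LSK those below numbered 2, and 2 to 6 with 1 library left out (7.34% and 10.9% to 24.3% of all genes). Of single genes, the log2 fold change in GMP reversed for Spo11 (-0.13 with that covariate, -1.12 without KO-178 and KO-179) and Tdrd9 (-0.84 without KO-178 and KO-179), and with 1 library left out it spanned -0.043 to 0.87 for Brdt, -1.18 to 0.55 for Ddx4 and -2.48 to 0.23 for Tex14. In LSK it spanned -0.84 to 0.40 for Dazl, -0.12 to 0.11 for Ddx4, -0.84 to 0.25 for Hormad2, -0.86 to 0.65 for Spo11, -0.18 to 0.56 for Syce1 and -0.048 to 0.74 for Tex14, and the difference spanned -0.59 to 1.12 for Ddx4, -0.16 to 0.87 for Dmc1, -2.39 to 0.53 for Tdrd1 and -6.22 to 0.11 for Tdrd9, each with 1 library left out. Hormad2 in GMP stayed between 0.99 and 1.74. No paired analysis was possible because no replicate number occurs in more than 1 group.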
